A study of Mus musculus with 8 samples.

Results

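The small leucine-rich proteoglycans (SLRPs) are 10 genes in this data set, taken by symbol from the count tables: Dcn, Bgn, Aspn, Lum, Kera, Fmod, Prelp, Omd, Ogn and Epyc. They are 10 of the 43629 Ensembl genes counted, and all 10 were among the 17129 genes that passed the filter on low counts and were tested, Kera only through the controls J6 and J7. RNA was sequenced from the lower first molars of mouse embryos at E18.5, with the left and right molars of an embryo pooled. The control group held 4 embryos with floxed Jagged1 and no label of Cre (Jagged1 fl/fl, embryos J3, J5, J6 and J7), and the mutant group held 4 embryos that carried the K14:cre transgene on the same Jagged1 fl/fl background (K14J26, K14J28, K14J29 and K14J30). By these labels all 8 embryos carried the floxed allele, while the paper calls the controls WT. The K14 promoter drives Cre in epithelial cells, while each library came from whole molars with epithelium and mesenchyme together. The paper describes the groups as littermates. The sex of the embryos and the litter of each one were not given in the sources used here.

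SLRPs are secreted proteins with a core of leucine-rich repeats that bind collagen fibrils and regulate how the fibrils assemble and how thick they become. Members differ in their amino-terminal end, which can carry chondroitin or dermatan sulfate chains, sulfated tyrosines or a run of acidic residues, and several of them also bind growth factors of the TGF-beta family. In teeth they are best known from predentin, the unmineralized collagen matrix laid down by odontoblasts, and from the connective tissue around the tooth.

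The amino-terminal coding stretches are shown because they hold features in which these proteins differ. They were read from the GENCODE M21 transcripts on GRCm38, on the plus strand and within exon 2 of each gene. Capitals mark, for decorin (Dcn) and biglycan (Bgn), the codons of a serine followed by a glycine (TCN, AGT or AGC, then GGN), the kind of site at which a glycosaminoglycan chain can be attached. For asporin (Aspn) they mark a run of aspartate codons (GAT or GAC), and for lumican (Lum) and keratocan (Kera) the tyrosine codons (TAT or TAC). The decorin stretch is chr10:97483438-97483527 (codons 26 to 55), the biglycan stretch chrX:73490889-73490978 (codons 34 to 63), the asporin stretch chr13:49551751-49551810 (codons 30 to 49), the lumican stretch chr10:97568290-97568379 (codons 16 to 45) and the keratocan stretch chr10:97608847-97608936 (codons 23 to 52).
Dcn: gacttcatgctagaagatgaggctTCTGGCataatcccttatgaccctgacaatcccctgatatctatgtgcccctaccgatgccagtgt
Bgn: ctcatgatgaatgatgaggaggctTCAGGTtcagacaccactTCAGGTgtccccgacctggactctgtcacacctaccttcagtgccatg
Aspn: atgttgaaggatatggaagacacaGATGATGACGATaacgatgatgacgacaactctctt
Lum: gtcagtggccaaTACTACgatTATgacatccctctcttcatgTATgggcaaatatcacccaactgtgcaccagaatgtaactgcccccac
Kera: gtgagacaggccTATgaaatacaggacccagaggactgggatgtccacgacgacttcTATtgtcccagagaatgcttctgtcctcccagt

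Within its first 100 codons Dcn held 1 such serine-glycine pair and Bgn held 2. Lum and Epyc also held 1 each, at codon 17 (unmarked in the stretch shown) and at codon 64. Aspn held none there and had a run of 4 aspartate codons from codon 38. After 1 other codon (aac) another run of the same length follows, unmarked in the stretch shown. Fmod held 13 tyrosine codons in the same window, Omd 9, Lum 8, Kera 5, Dcn 2 and Bgn 0.

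Each embryo had between 17327224 and 29792467 counted reads. Levels are given as CPM, which are counts relative to the library size after TMM scaling (a scaling that allows for a few very abundant genes), and fold changes as mutant over control on the log2 scale with their standard error (SE). A count of 3 equals 0.0998 to 0.166 CPM, depending on the embryo. The deleted gene, Jag1, had 95.2, 103, 104 and 99.9 CPM in the controls J3, J5, J6 and J7 and 34.0, 39.0, 46.0 and 57.1 CPM in the mutants (K14J26, then K14J28, K14J29 and K14J30, the order kept throughout). Its log2 fold change was -1.19 (SE 0.14, adjusted p = 0.00517 by edgeR's quasi-likelihood test, with p-values adjusted by the Benjamini-Hochberg method over all tested genes). K14J26 had the lowest TMM factor (0.843), and its 6 ameloblast markers summed to 114373 CPM, against 3503 to 25820 CPM in the other mutants and 557 to 3254 CPM in the controls. The 5 odontoblast markers summed to 755, 1646, 2053 and 804 CPM in the controls and to 7642, 2399, 5787 and 3588 CPM in the mutants, in the same order of embryos, with 4 of the 5 called higher. The 7 dental mesenchyme markers summed to between 493 and 527 CPM in the controls and between 331 and 373 CPM in the mutants, with 6 of the 7 called lower. The 8 dental epithelium markers summed to between 5842 and 6613 CPM in the controls and between 6844 and 9389 CPM in the mutants. Of the 8, 1 was called higher. All markers of dental epithelium, odontoblasts and dental mesenchyme were detected in each embryo. In whole molars fewer cells of a type and less RNA per cell cannot be told apart.

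Of the 10 SLRP genes, Dcn rose and Lum fell in the mutant molars at an adjusted p under 0.05. Kera was called lower as well, but entered the test only through 2 embryos of the group in which it is high, and the other 7 did not pass the test. Dcn was 1.65-fold higher and Lum 1.39-fold lower, and Kera, the least abundant SLRP per transcript length, was close to absent from the mutant libraries. Over all 17129 tested genes 9.52% were called higher and 6.61% lower, and at these rates 10 genes would hold about 1 call in each direction. These rates depend on the embryos used. With 1 embryo left out, 250 to 2479 genes were called higher and 170 to 1843 lower, and without J6 and J7 3 and 4. The criteria of the study, which does not name a log2 scale, were taken here as a log2 change of at least 0.5 with an unadjusted p up to 0.05. By them 1 member passed as higher (Dcn) and 1 as lower (Kera), against 8.33% and 5.85% of all tested genes. The 4 control and 4 mutant values did not overlap for 1 member, Kera, against 24.2% of all tested genes. The members' median log2 fold change was 0.14, with 6 members above 0 and 4 below, and that of all tested genes was 0.0058.

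**Figure D1:**
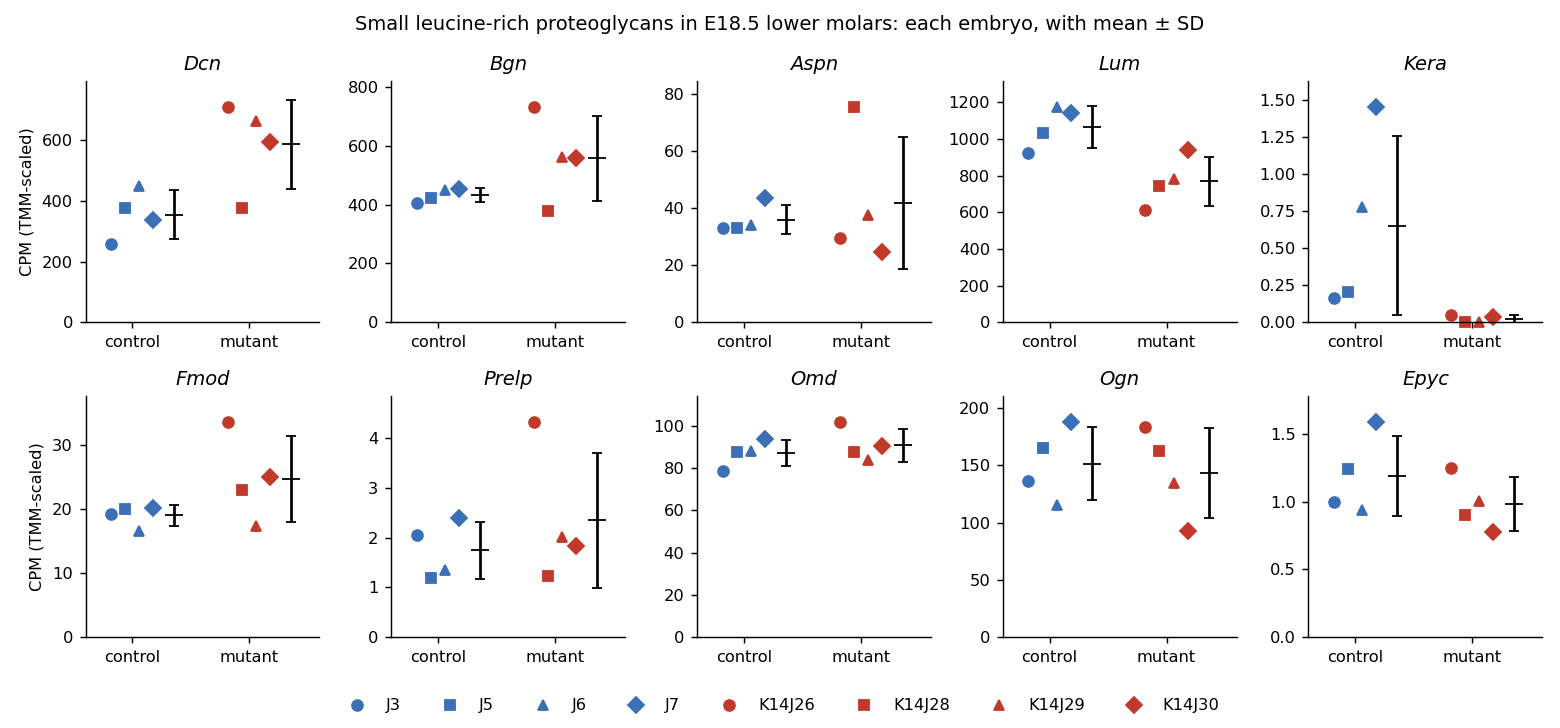
CPM of each SLRP gene in each of the 8 embryos, control in blue and mutant in red, each panel on its own axis from 0. Black bars give the mean and SD of 4 embryos. Kera is the gene whose groups are fully apart, while Dcn and Lum shift with 1 embryo reaching the other group.

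Decorin (Dcn, ENSMUSG00000019929, chromosome 10 of GRCm38 from 97479609 to 97518143, plus strand) is a class I SLRP with 1 glycosaminoglycan chain that binds type I collagen and TGF-beta. It had 257, 378, 450 and 336 CPM in J3, J5, J6 and J7 and 710, 378, 664 and 593 CPM in K14J26, K14J28, K14J29 and K14J30. The mutants K14J26, K14J29 and K14J30 lay above every control, and K14J28 lay at the level of J5. The mean rose from 355 ± 80.5 to 586 ± 147 CPM (SD, n = 4 in each group), a log2 fold change of 0.72 (SE 0.21, adjusted p = 0.0482 by edgeR's quasi-likelihood test). Within the controls Dcn ordered the embryos J3, J7, J5 and J6 from low to high, and within the mutants K14J28, K14J30, K14J29 and K14J26, and the summed odontoblast markers gave the same order in both groups. Dspp, the largest part of that sum in each embryo, gave this order, as did Phex. Dmp1 broke it in both groups, and Nes and Wnt10a broke it among the controls only. The part of the odontoblast level in the Dcn difference was not tested. The adjusted p stayed under 0.05 in 2 of the 8 fits with 1 embryo left out (without J6 and without K14J28), and ran from 0.00877 to 0.124 over the 8.

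Biglycan (Bgn, ENSMUSG00000031375, chromosome X from 73483602 to 73495933, plus strand) is the closest relative of decorin and carries glycosaminoglycan chains at both of its serine-glycine sites. Its levels were 404, 423, 449 and 453 CPM in the controls and 732, 379, 563 and 557 CPM in the mutants. Again K14J26, K14J29 and K14J30 lay above every control, but K14J28 was the lowest of all 8 embryos. The log2 fold change was 0.37 (SE 0.16, adjusted p = 0.146), which did not pass the test, and the mutants spread more widely (557 ± 144 CPM) than the controls (432 ± 22.8 CPM). Without K14J28 the fold change was 0.51 with an adjusted p of 0.0104 (edgeR). Bgn is X-linked, and Xist, the RNA that coats the inactive X chromosome, was high in K14J28 (1930 CPM) and K14J29 (1468 CPM), and did not exceed 1.09 CPM in any other embryo. With the Xist level as a covariate, Bgn had a log2 fold change of 0.61 and an adjusted p of 0.0393 (edgeR). High Xist occurred in mutants only, so sex and group cannot be fully told apart, and a role of X dosage was not tested.

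Asporin (Aspn, ENSMUSG00000021388, chromosome 13 from 49544443 to 49567565, plus strand) is the class I member with a run of aspartates in place of a glycosaminoglycan site, and is known from the periodontal ligament and dental follicle. It had 33.2, 33.2, 34.2 and 43.7 CPM in the controls and 29.7, 75.6, 37.8 and 24.6 CPM in the mutants. K14J28 stood far above the other 7 embryos, while K14J26 and K14J30 lay below every control. The log2 fold change was 0.22 (SE 0.31, adjusted p = 0.648), and without K14J28 it was -0.24. In the same embryo the 4 osteoclast markers summed to 1271 CPM, against 177 to 413 CPM in the other 7, and each of the 4 was highest there. The 4 macrophage markers summed to 148 CPM, against 49.9 to 81.4 CPM, through Csf1r (92.8 CPM) and Cd68 (42.3 CPM), while Adgre1 (4.79 CPM) and C1qa (7.95 CPM) lay within the range of the others. The 7 osteoblast markers summed to 1001 CPM in K14J28 and to 552 to 798 CPM in the others, and the excess was in Ibsp (448 CPM, against 141 to 189 CPM), with Bglap the lowest of the mutants (31.3 CPM). The 7 follicle and fibroblast markers did not stand out as a sum (3665 CPM, against 3193 to 3787 CPM in the other mutants), most of which was Igfbp5 (2663 CPM). Of the 7, Postn (441 CPM, against 189 to 306 CPM), Pth1r (40.8 CPM, against 19.8 to 33.9 CPM) and Acta2 (218 CPM, against 88.1 to 212 CPM) were highest in K14J28. Between the groups, 1 of these 7 markers was called higher and 2 lower. Of the 7 osteoblast markers, 3 were called higher and none lower. The part of these cell types in the Aspn level was not tested.

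Lumican (Lum, ENSMUSG00000036446, chromosome 10 from 97565128 to 97572703, plus strand) is a class II SLRP that can carry keratan sulfate and keeps collagen fibrils thin and evenly spaced. Its levels were 924, 1033, 1176 and 1140 CPM in the controls and 615, 744, 781 and 941 CPM in the mutants. The mutants K14J26, K14J28 and K14J29 lay below every control, and K14J30 lay just above J3, the lowest control. The mean fell from 1068 ± 114 to 771 ± 134 CPM (SD, n = 4), a log2 fold change of -0.47 (SE 0.13, adjusted p = 0.0390 by edgeR's quasi-likelihood test). With 1 embryo left out the fold change lay between -0.58 and -0.38, and the adjusted p stayed under 0.05 in 3 of 8 fits (without K14J26, K14J28 or K14J30). With the Xist level as a covariate it was 0.0992 (edgeR). The size of the change with all 8 embryos is under the study's criterion of 0.5, where that is taken on the log2 scale.

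Keratocan (Kera, ENSMUSG00000019932, chromosome 10 from 97606879 to 97613692, plus strand) is the close relative of lumican that is best known from the cornea. Only 3, 5, 15 and 43 reads fell on it in J3, J5, J6 and J7, and 1, 0, 0 and 1 on it in the mutants. In CPM these were 0.17, 0.21, 0.78 and 1.45 in the controls and 0.05, 0, 0 and 0.04 in the mutants, so every control lay above every mutant, although J3 stood at the floor of 3 counts. Kera passed the filter only through J6 and J7, in the group where it is high, so its fitted values are conditional on their reads and give no independent support. They were a log2 fold change of -4.81 (SE 1.04) and an adjusted p of 0.0205 (edgeR's quasi-likelihood test), which was 0.0685 without K14J29 and 0.088 with the Xist level as a covariate. With no filter on low counts, where 26748 genes were tested, the fold change was -4.80 and the adjusted p 0.0148 (edgeR). That fit used the same reads of J6 and J7 and gives no independent support either. Pooled over embryos, 66 reads against 2 gave a control rate 38.2 times that of the mutants, with an exact 95% interval of 10.2 to 322. The interval covers counting error only, leaves out the spread between embryos, and gives no independent support. J6 and J7 held 58 of the 66 control reads (87.9%). Without both, 8 reads against 2 remained and Kera no longer passed the filter, so no test was made there, nor without either one of them.

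The embryos J6 and J7 also stood apart in skeletal muscle transcripts. The 8 muscle markers summed to 382 CPM in J6 and 191 CPM in J7, and to between 5.48 and 18.2 CPM in the other 6 embryos, and 1 of the 8 was called lower in the mutants. Muscle was not at 0 elsewhere, apart from Myog, which had no counts in K14J26. The 4 tendon markers summed to between 72.2 and 86.3 CPM in the controls and between 64.5 and 88.3 CPM in the mutants, and 1 of the 4 was called lower. Among them Scx was highest in J6 (1.14 CPM) and J7 (0.507 CPM), and Tnmd lay between 18.4 and 23.3 CPM in the controls and between 11.9 and 16.7 CPM in the mutants. Mkx had 12.2 to 13.3 CPM in the controls and 12.6 to 16.3 CPM in the mutants, and Thbs4 was highest in K14J28 (54.9 CPM). The part of adjoining tissue in the Kera reads was not tested.

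Fibromodulin (Fmod, ENSMUSG00000041559, chromosome 1 from 134037254 to 134048277, plus strand) binds the same site on collagen as lumican and has the most tyrosine codons of the 10 genes within the first 100 codons. It had 19.3, 20.0, 16.6 and 20.2 CPM in the controls and 33.7, 23.0, 17.4 and 25.03 CPM in the mutants. The mutants K14J26, K14J28 and K14J30 lay above the controls and K14J29 within them. Its log2 fold change of 0.38 (SE 0.18, adjusted p = 0.162) did not pass the test. With the Xist level as a covariate it was 0.65, with an adjusted p of 0.0364 (edgeR). High Xist occurred only in K14J28 and K14J29, so the group difference in that fit rests mainly on K14J26 and K14J30 against the controls. A role of sex was not tested.

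Prelp (ENSMUSG00000041577, chromosome 1 from 133910304 to 133921414, minus strand), a basic SLRP that binds heparan sulfate, was low. It had 2.05, 1.20, 1.35 and 2.40 CPM in the controls and 4.33, 1.23, 2.01 and 1.82 CPM in the mutants. Only K14J26 lay outside the control range, and the log2 fold change of 0.40 (SE 0.40, adjusted p = 0.499) was about the size of its error. Without K14J26 it was -0.06.

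Osteomodulin (Omd, ENSMUSG00000048368, chromosome 13 from 49582462 to 49592822, plus strand), a keratan sulfate proteoglycan of bone and dentin, was the most even member among the mutants. Its coefficient of variation was 8.66% there and 7.06% in the controls, where Bgn had 5.28%. Omd levels were 78.9, 87.5, 88.3 and 93.7 CPM in the controls and 102, 87.7, 83.6 and 90.2 CPM in the mutants, and the groups overlapped. The log2 fold change was 0.06 (SE 0.08, adjusted p = 0.620), so the group means differed by less than the spread between embryos.

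Class III SLRPs have a shorter repeat domain. Osteoglycin (Ogn, ENSMUSG00000021390, chromosome 13 from 49608046 to 49624501, plus strand) had 136, 165, 116 and 188 CPM in the controls and 184, 163, 134 and 93.0 CPM in the mutants, and 3 of the 4 mutants lay within the control range. Its log2 fold change was -0.08 (SE 0.21, adjusted p = 0.824). Epiphycan (Epyc, ENSMUSG00000019936, chromosome 10 from 97644068 to 97682454, plus strand), a proteoglycan of growth cartilage, had 0.997, 1.24, 0.93 and 1.59 CPM in the controls and 1.25, 0.90, 1.01 and 0.78 CPM in the mutants. Its log2 fold change was -0.30 (SE 0.25, adjusted p = 0.424). The 8 cartilage markers summed to between 78.0 and 105 CPM in the controls and between 47.5 and 64.2 CPM in the mutants, with 1 of the 6 tested called lower. The gap between the groups lay in Hapln1 (63.6 to 84.8 CPM against 36.7 to 52.9 CPM), and Col2a1 and Acan overlapped between them. The part of cartilage in the Epyc level was not tested.

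**Figure D2:**
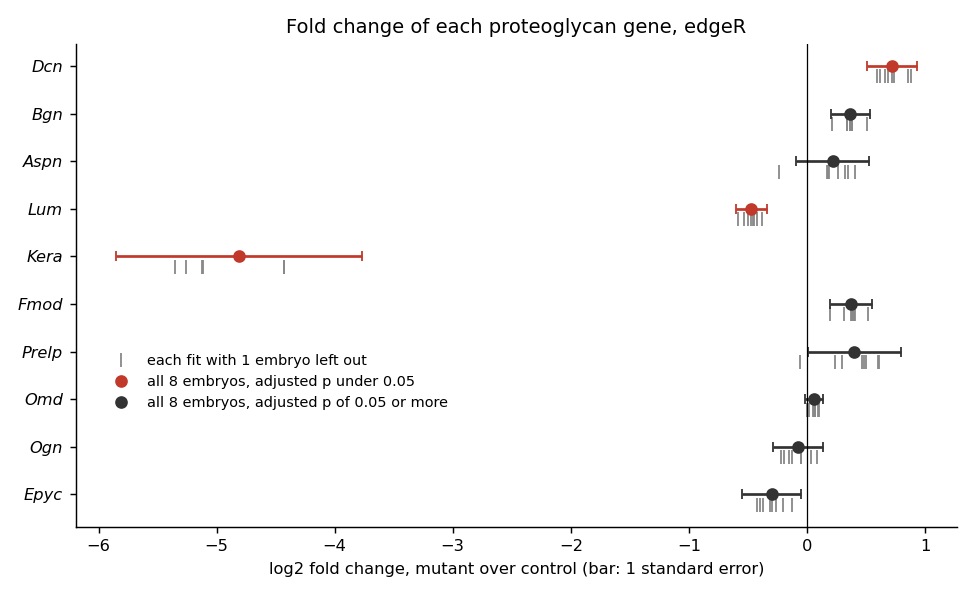
Log2 fold change, mutant over control, of each SLRP gene with 1 standard error (points, red where the adjusted p is under 0.05). Grey ticks give the fold change with each embryo left out in turn, except that Kera has none without J6 or J7. The ticks of Dcn, Bgn, Fmod, Omd, Lum and Epyc stay on 1 side of 0, as do the 6 of Kera, and those of Aspn, Prelp and Ogn cross it.

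Levels of different genes were compared per kilobase of the longest RefSeq-paired transcript. In the controls the order of the means was Lum (436 CPM per kb), Dcn (202), Bgn (179), Ogn (59.0), Omd (38.7), Aspn (15.5), Fmod (6.10), Epyc (0.690), Prelp (0.484) and Kera (0.285). Dcn and Bgn overlapped between embryos, as did Epyc, Prelp and Kera, and the other neighbours in this order did not. By this length Dcn (333 CPM per kb) and Lum (315) exchanged places in the mutants, followed by Bgn (230) and Ogn (55.9). The values of Dcn, Lum and Bgn overlapped there, as did those of Ogn (36.2 to 71.7) and Omd (37.2 to 45.3). The exchange was not uniform, since Dcn lay above Lum in K14J26 and K14J29 and below it in K14J28 and K14J30. The order also depends on the length used. By the union of all annotated exons, which is 5838 bases for Dcn and 6099 for Bgn against 1758 and 2419 for the transcripts, the control means of Dcn and Bgn were 60.8 and 70.9 CPM per kb, close to Ogn. By that length the mutant mean of Dcn was 100.4 CPM per kb, below Lum, so the exchange of places was not seen.

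The ratio of Dcn to Lum reads within an embryo needs neither scaling nor length. It was 0.278, 0.366, 0.382 and 0.295 in J3, J5, J6 and J7 and 1.15, 0.508, 0.850 and 0.630 in K14J26, K14J28, K14J29 and K14J30. Every mutant lay above every control, and the mean ratio was 0.330 ± 0.0514 in controls and 0.785 ± 0.283 in mutants (SD, n = 4). This ratio was formed from genes already known to move in opposite directions, so it is a description and was not tested. The ratio of Bgn to Lum reads was 0.437, 0.410, 0.382 and 0.397 in the controls and 1.19, 0.508, 0.720 and 0.592 in the mutants, also without overlap. It divides by the same gene, already known to fall, so it is no separate result and was not tested either. The ratio of Dcn to Bgn overlapped between the groups, at 0.636, 0.892, 1.002 and 0.743 in controls and 0.970, 0.999, 1.18 and 1.06 in mutants.

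The sum of the 10 genes changed little, from 2153 ± 214 to 2218 ± 250 CPM. Dcn, Lum and Bgn made up 86.1% of it in the controls and 86.0% in the mutants. Within it the share of Lum was 49.6% in the controls and 35.1% in the mutants, and the share of Dcn was 16.4% and 26.1%. The coefficient of variation between embryos was larger in the mutant group for 9 of the 10 genes, with Epyc the exception, and for 73.6% of all tested genes. For Kera it rests on 2 mutant reads. K14J26 had the highest level of 5 of the 10 genes (Dcn, Bgn, Fmod, Prelp and Omd) and the lowest of Lum.

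**Figure D3:**
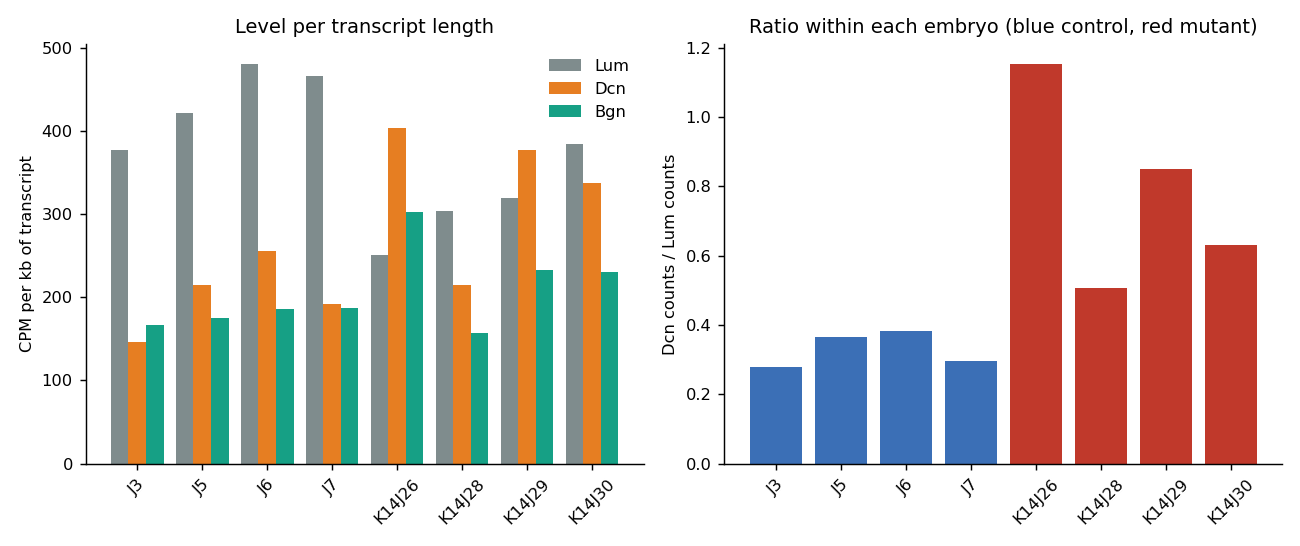
Left, CPM per kb of transcript of Lum, Dcn and Bgn in each embryo. Right, Dcn reads divided by Lum reads in each embryo, controls in blue and mutants in red. All 4 mutant ratios, from 0.508 to 1.15, lie above the control ratios, which reach 0.382.

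All of the SLRP genes but Bgn lie in clusters, and in the chromosome 10 cluster Dcn and Lum changed in opposite directions. On chromosome 10, Dcn, Lum, Kera and Epyc follow each other on the plus strand within 203 kb. Dcn, at one end, rose (0.72) and its neighbour Lum fell (-0.47). Kera had a fitted value of -4.81, which rests mostly on the reads of J6 and J7, and Epyc, at the other end, had a log2 fold change of -0.30 that did not pass the test. On chromosome 13, Ecm2, Aspn, Omd and Ogn span 120 kb, and none of them passed the test, with log2 fold changes of -0.11, 0.22, 0.06 and -0.08. That cluster lies within Cenpp, a centromere protein gene on the opposite strand, whose log2 fold change of -0.35 did not pass the test (adjusted p = 0.332 by edgeR). Cenpp shares 7 exon bases with Aspn and none with Omd or Ogn, and its mean of 9.44 CPM is below each of them. On chromosome 1, Prelp and Fmod lie on opposite strands within 138 kb, with similar log2 fold changes of 0.40 and 0.38 that did not pass the test. An antisense gene, Gm15851, shares 350 exon bases with Prelp and had 13 reads over all 8 embryos.

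**Figure D4:**
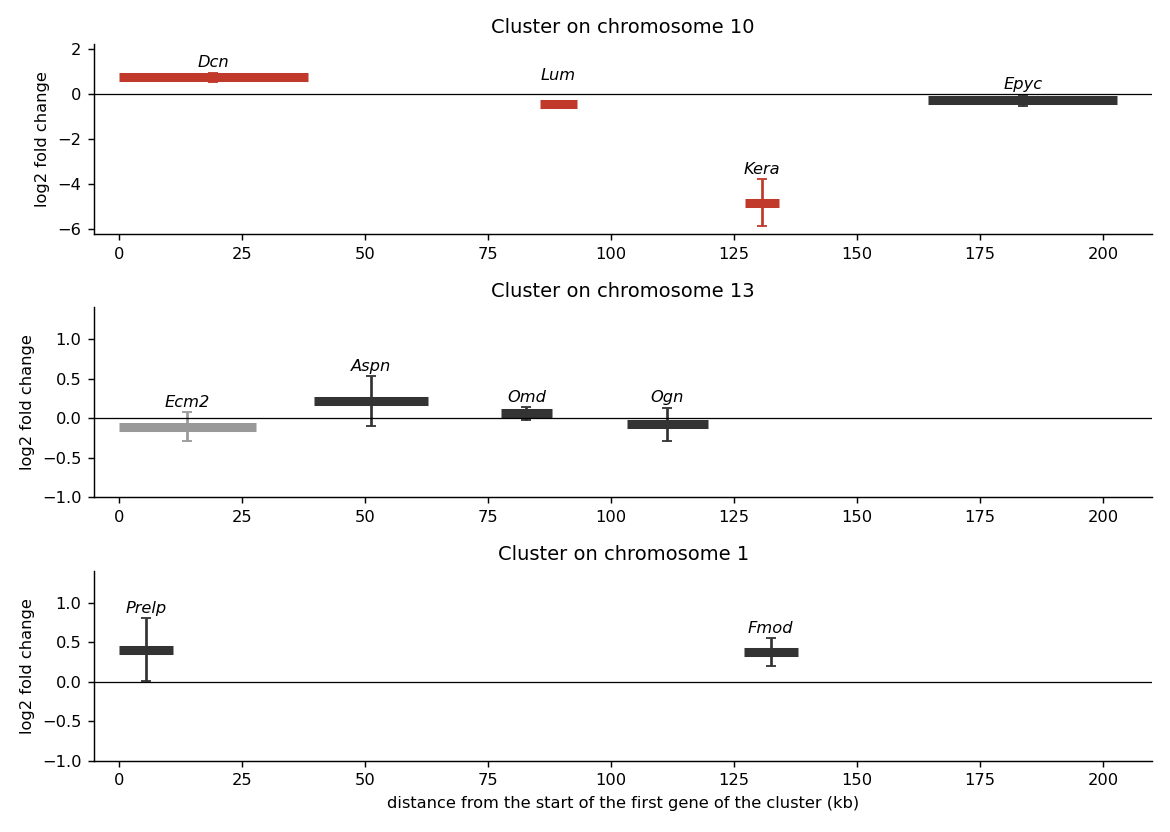
Log2 fold change, mutant over control, against the position of each gene, in kb from the start of the first gene of its cluster on chromosomes 10, 13 and 1. Horizontal bars span the genes, vertical bars give 1 standard error, red marks an adjusted p under 0.05, and grey marks Ecm2, which is not one of the 10 genes. The y axis of the chromosome 10 panel is wider than the other two.

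The genes whose levels most resembled those of the called members were found by Pearson correlation of log2 CPM over the 8 embryos among 11904 tested genes with a mean of at least 5 CPM. The closest were Cyfip2 (r = 0.991), Gm20460 (0.986) and Rgs3 (0.986) for Dcn, Zfpm2 (0.973), Sun2 (0.969) and Mtfr1l (0.966) for Lum, and Fbxl7 (0.980), Nkd2 (0.974) and Ppfibp2 (0.973) for Kera. For Aspn, Postn was the second closest (0.967) after Hccs (0.969). These are the extremes of 11904 values over 8 libraries that share depth and group differences, and are given as a description. For Kera, with 1, 0, 0 and 1 reads in the mutants, r rests on the group difference and the control reads, mostly those of J6 and J7.

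Genes that act on or with SLRPs were described from lists of related genes. Of 90 such genes tested, 14 were called higher and 6 lower, with a median log2 fold change of 0.07, against 9.52% and 6.61% of all tested genes. Without J7 these counts were 0 and 1, and without K14J29 both were 0. None of the 9 other leucine-rich matrix proteins tested was called, and the smallest p values belonged to Lrrc15 (log2 fold change 0.45, adjusted p = 0.123) and Podn (0.42, adjusted p = 0.226, edgeR).

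Of 22 enzymes that build the chondroitin and dermatan sulfate chains carried by decorin and biglycan, 4 were called higher and 3 lower, with a median log2 fold change of 0.15. The sulfotransferases Chst15 (0.50, adjusted p = 0.0178), Chst12 (0.44, adjusted p = 0.0289) and Chst13 (1.06, adjusted p = 0.0334) rose, and Xylt2, which starts the chain on the core serine, fell (-0.24, adjusted p = 0.0374, edgeR). Of 10 keratan sulfate enzymes tested, 2 were higher and 2 lower, with a median of -0.06. The galactosyltransferase B4galt1 rose (0.37, adjusted p = 0.0325) and its relative B4galt2 fell (-0.35, adjusted p = 0.0133, edgeR). Among the sulfotransferases that act on keratan sulfate, Chst2 fell (-0.53, adjusted p = 0.0216) and Chst1 rose (2.80, SE 0.71, adjusted p = 0.0313, edgeR). Chst1 stood at 12.5, 18.3, 18.1 and 11.5 CPM in the controls and at 287, 24.6, 67.0 and 42.3 CPM in the mutants, and without K14J26 its log2 fold change was 1.57 (adjusted p = 0.0115, edgeR). Of 5 genes of tyrosine sulfation, the sulfotransferase Tpst1 fell (-0.40, adjusted p = 0.0156, edgeR) and the others did not pass.

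Of 14 collagens bound by SLRPs, 3 were called higher and none lower, with a median log2 fold change of -0.09. Both chains of type I collagen rose, Col1a2 by 1.43 (adjusted p = 0.0237) and Col1a1 by 1.10 (adjusted p = 0.0406), as did Col11a2 by 2.12 (adjusted p = 0.0212, edgeR). Col1a1 had 3798, 5882, 6447 and 4315 CPM in the controls and 16676, 5464, 11548 and 10179 CPM in the mutants, and within each group it ordered the embryos as Dcn did. Among 15 growth factors and receptors that SLRPs bind, Ccn4 (1.42, adjusted p = 0.0135), a secreted Wnt target that binds decorin and biglycan, and Bmp2 (0.77, adjusted p = 0.0300, edgeR) rose and none fell, with a median of 0.22. Of 15 proteases and collagen maturation genes tested, the collagen cross-linking enzymes Lox (0.999, adjusted p = 0.0166) and Loxl4 (2.16, adjusted p = 0.0168) and the procollagen C-proteinase enhancer Pcolce2 (0.56, adjusted p = 0.0382, edgeR) rose and none fell, with a median of 0.25.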

How the data were processed

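Each embryo has 1 table, in which the authors deposited raw counts of reads per Ensembl gene, without normalization. The study prepared unstranded single-end libraries and aligned reads with STAR to GRCm38 (GRCm38.p3 per the labels). Its methods name GenomicRanges for counting and the submitters' processing notes name featureCounts. The treatment of reads with several matches or on overlapping genes is not given in the sources used here. Groups follow the sample labels. Each embryo is 1 sample. The p-values set the difference between groups against the spread between these embryos, which edgeR estimates in part from all tested genes.

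Symbols, positions and transcript lengths came from GENCODE M21, which holds 42548 of the 43629 identifiers (1081 have no symbol here). A gene was kept if 2 or more of the 4 embryos of a group had 10 or more counts. The kept genes were scaled by TMM and compared by edgeR 4.0.16 (R 4.3.3, quasi-likelihood), without covariates, with Benjamini-Hochberg adjustment over all 17129 genes. Library sizes are sums over the genes kept. SE is the absolute log2 fold change over the square root of F. Correlations used a prior count of 2. With 4 embryos per group the spread between embryos limits the precision, and for Kera, Epyc and Prelp low counts limit it too.

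The members and all gene lists were chosen with earlier results of these data known. Named are the members, Jag1, the called genes of each related list up to the 4 smallest p (or 2 where none was called), overlapping genes and neighbours in a cluster, the 3 genes most like each member (given for the called members and Aspn), and markers. Which markers and neighbours to mention was chosen after their values were seen. Alternatives were relative log expression (RLE) and library size scaling, other count filters, DESeq2 1.42.0, Xist as a covariate, and leaving out embryos.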

Additional observations from a re-analysis of the deposited data

Results flagged for a closer look

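Among the 4 controls, the Aspn level of J7, 43.7 CPM, lay far from the other 3, which were 33.2, 33.2 and 34.2 CPM. It was picked out because its gap to the nearest embryo took up most of the range of the group (Dixon's test). Chance alone picks out about 1 group in 20, and 22 groups were examined.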

How the results depend on the processing

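Kera, Lum, Dcn, Bgn, Fmod and Epyc kept the sign of their fold change under every alternative that gave a value. Lum was called in 7 of 15 alternatives (adjusted p 0.00586 to 0.282) and Dcn in 7 of 15 (0.00695 to 0.164). Kera had no value without J6, without J7, without both, or where all 8 embryos needed at least 10 counts, because it then had too few counts to be tested. In the 11 that kept J6 and J7 and gave it a value, its adjusted p ran from 0.0012 to 0.088, which is not comparable with the counts for Lum and Dcn. Against 1 member called higher and 2 lower, library size scaling gave 0 and 1, the Xist covariate 3 and 0, leaving out J6 and J7 0 and 0, and 1 embryo left out 0 to 2 and 0 to 2. The filter on all 8 embryos gave 1 lower. By the criteria of the study (1 and 1), the Xist covariate gave 3 higher, library size scaling 2 lower, the filter on all 8 embryos 0 lower, leaving out J6 and J7 0 lower, and 1 embryo left out 1 to 2 higher and 0 to 2 lower. Over all genes (1631 and 1133), library size scaling gave 855 higher, DESeq2 1718 lower, leaving out J6 and J7 3 and 4, and 1 embryo left out 250 to 2479 and 170 to 1843. Among the fits with 1 embryo left out, the lowest came without K14J29. Related genes (14 and 6) numbered 22 higher with DESeq2, 3 lower with no filter, 0 and 0 without J6 and J7, and 0 to 24 and 0 to 10 with 1 embryo left out. Without J6 and J7 the Jag1 fold change was -1.17 (adjusted p = 0.115). Signs turned for Ogn (-0.22 to 0.082 with 1 embryo left out), Aspn (-0.24 without K14J28 and up to 0.40, and -0.47 with Xist), Prelp (-0.059 to 0.61) and Omd (-0.045 with library size scaling, which moved the median of all genes to -0.09). With the Xist covariate Kera stood at -3.91 (adjusted p = 0.088, edgeR) and Lum at -0.47 (0.0992). High Xist occurred in mutants only, so the calls gained or lost with this covariate cannot be set apart from the group. With library size scaling Dcn stood at 0.60 (adjusted p = 0.0637) and Lum at -0.56 (0.0568). Of 285 values of 19 named related genes, 192 stayed on the same side of the threshold, 92 lost a call, 1 gained one and none turned. The causes were not tested. No analysis paired by litter was possible because the litter of each embryo was not given in the sources used here.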
